A study of Rattus norvegicus with 3 samples.

Results

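The RT1 complex is the major histocompatibility complex of the rat, and its genes were followed here across the 3 arrays of a kidney reperfusion study. Members were all probe sets whose annotated gene symbol begins with RT1-. There were 37 of them among 31099 probe sets, and they stood for 25 of 14863 annotated genes. By symbol, 26 probe sets of 19 genes belonged to class I and 11 probe sets of 6 genes to class II. Class I was split into 6 locus groups: RT1-S, RT1-N, RT1-T24, RT1-M, RT1-CE and RT1-A. Probe sets that list RT1-A together with RT1-CE genes were kept apart from these groups. A probe set is a group of short probes that together read 1 transcript. Of the class I probe sets, 6 list several RT1 symbols, and 12 have an ID ending in _x_at, _s_at or _a_at, which marks probes shared with related transcripts. The same endings were found on 2 class II probe sets. Many class I RT1 genes are near-identical copies, so a signal from such probe sets cannot be assigned to 1 locus with certainty.

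The kidneys came from male Wistar rats of 370 to 508 g and modelled donation after cardiac death. Every kidney, in all 3 groups, had 20 min of warm ischaemia and 17 ± 0.7 h of cold storage in University of Wisconsin solution. It was then perfused with the blood of a recipient rat through the femoral artery for 5 h 43 min ± 21 min. Recipients were infused with heparin (100 U/ml/h), with peptide 2 (0.5 mg/ml), a peptide modelled on the part of the chemokine CCL5 that binds heparin, or with normal saline (1 ml/h) as control, 7 per group. The series' design text calls the treatments a bolus. RNA of the 3 kidneys with the best RNA in each group was pooled, and each pool was read on 1 array. The study asked whether either agent dampens inflammation. A single array per group allows no test, and the spread between animals is not known. Wistar rats are an outbred stock, and no source used here gives the RT1 types of donors and recipients.

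Class I molecules are made of a heavy chain and beta-2 microglobulin, and show peptides from inside the cell to CD8 T cells and natural killer cells. The classical RT1-A molecules are the main ones doing so, and the nonclassical loci make molecules with more special roles. Class II molecules are pairs of an alpha and a beta chain (RT1-Da with RT1-Db1, RT1-Ba with RT1-Bb) that show peptides taken up from outside to CD4 T cells. RT1-DMa and RT1-DMb form the helper that loads them. Interferon gamma is a known inducer of both classes, through the transactivator Nlrc5 for class I and Ciita for class II. Renal endothelium and tubule can carry both, as can leukocytes that enter with the blood.

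Of the 25 genes, 24 were found in the RefSeq table of the GRCr8 assembly, all on chromosome 20. For 21 genes a promoter window was at hand, from 250 bases before to 50 bases after the transcription start (RefSeq, GRCr8). Short upstream stretches are shown for 7 class I genes, chosen with the array values known. RT1-S3 and RT1-N3 hold another form of the letters of an interferon-response element than the RT1-CE and RT1-A genes shown. Whether either form bears on the array values was not tested. All run 5′ to 3′ on the gene's strand, with motif matches in capitals.
RT1-S3, chr20:2675390-2675449, plus strand: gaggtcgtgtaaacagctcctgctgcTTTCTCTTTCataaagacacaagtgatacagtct
RT1-N3, chr20:2666256-2666315, plus strand: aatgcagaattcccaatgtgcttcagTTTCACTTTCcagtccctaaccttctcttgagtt
RT1-CE16, chr20:3265520-3265579, minus strand: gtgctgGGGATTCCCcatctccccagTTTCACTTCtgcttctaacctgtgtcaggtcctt
RT1-CE10, chr20:3385120-3385179, minus strand: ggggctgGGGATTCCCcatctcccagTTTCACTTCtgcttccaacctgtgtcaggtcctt
RT1-CE5, chr20:3484203-3484262, minus strand: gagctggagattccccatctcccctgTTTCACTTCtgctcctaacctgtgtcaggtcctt
RT1-A3, chr20:4849276-4849335, plus strand: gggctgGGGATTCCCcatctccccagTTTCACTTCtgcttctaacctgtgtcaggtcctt
RT1-A2, chr20:4872691-4872750, plus strand: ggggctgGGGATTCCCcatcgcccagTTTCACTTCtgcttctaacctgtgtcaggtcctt

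The capitals in RT1-S3 and RT1-N3 are 2 copies of GAAA with 2 bases between them, here read on the other strand, which 3.92% of all 33469 promoter windows hold. RT1-S3 and RT1-N3 were the 2 of 16 class I windows with it. The last block of capitals in the RT1-CE and RT1-A genes matches GAANNGAAA, a form 1 base shorter, found in 9 of the 16 class I windows and in 8.54% of all windows. Ahead of it, 4 of the 5 stretches hold GGGATTCCC, a binding motif of NF-kB, which 7 of the 16 class I windows carry against 0.365% of all windows. The RT1-CE5 stretch has no match there. The windows of RT1-T24-4, RT1-T24-3, RT1-M3-1, RT1-M6-1 and RT1-CE12 hold none of these motifs. The 2 interferon forms differ in length, so a match to one is no match to the other at the same base, and both strands were searched. These are matches of letters and show no binding.

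RT1-S3 was higher on both treated arrays on every one of its probe sets. It is listed in RefSeq under the synonyms RT-BM1 and H2-T23. H2-T23 is the mouse gene of Qa-1, a nonclassical molecule that in the mouse is a ligand of the natural killer receptor CD94/NKG2A. Probe set 1388164_at read 9.55 with heparin, 9.70 with peptide and 8.41 in control on the log2 scale. It was therefore 2.20-fold higher with heparin and 2.44-fold higher with peptide. Probe set 1371123_x_at read 9.93 with heparin, 10.05 with peptide and 9.03 in control, and 1388213_a_at read 9.20, 9.48 and 8.43 in the same order. Probe set 1388212_a_at read 10.95 with heparin, 10.96 with peptide and 10.18 in control. Over the 4 probe sets the log2 differences were 0.77 to 1.14 with heparin and 0.78 to 1.28 with peptide, and the control array was the lowest on each. They may share probes, and all come from the same 3 pools, so they are not 4 independent readings.

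RT1-N3, the neighbour of RT1-S3 in the RefSeq gene order, had the same pattern. It read 7.57 with heparin, 7.60 with peptide and 6.69 in control, which is 1.84-fold and 1.88-fold higher. RT1-T24-4 had the largest difference among all measured RT1 probe sets, with 7.37 with heparin, 6.63 with peptide and 5.06 in control. That is 4.96-fold higher with heparin and 2.96-fold higher with peptide, read by a single _x_at probe set. RT1-T24-3, which is listed together with RT1-T24-4 on another probe set, went opposite ways in the 2 treatments. It read 9.34 with heparin, 7.79 with peptide and 8.59 in control, or 1.69-fold higher with heparin and 1.74-fold lower with peptide. A further probe set that lists both RT1-T24 genes read 3.59 on all 3 arrays, below the array medians. RT1-M3-1, whose mouse counterpart H2-M3 presents N-formylated bacterial peptides, read 5.57 with heparin, 5.32 with peptide and 5.05 in control.

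**Figure D1:**
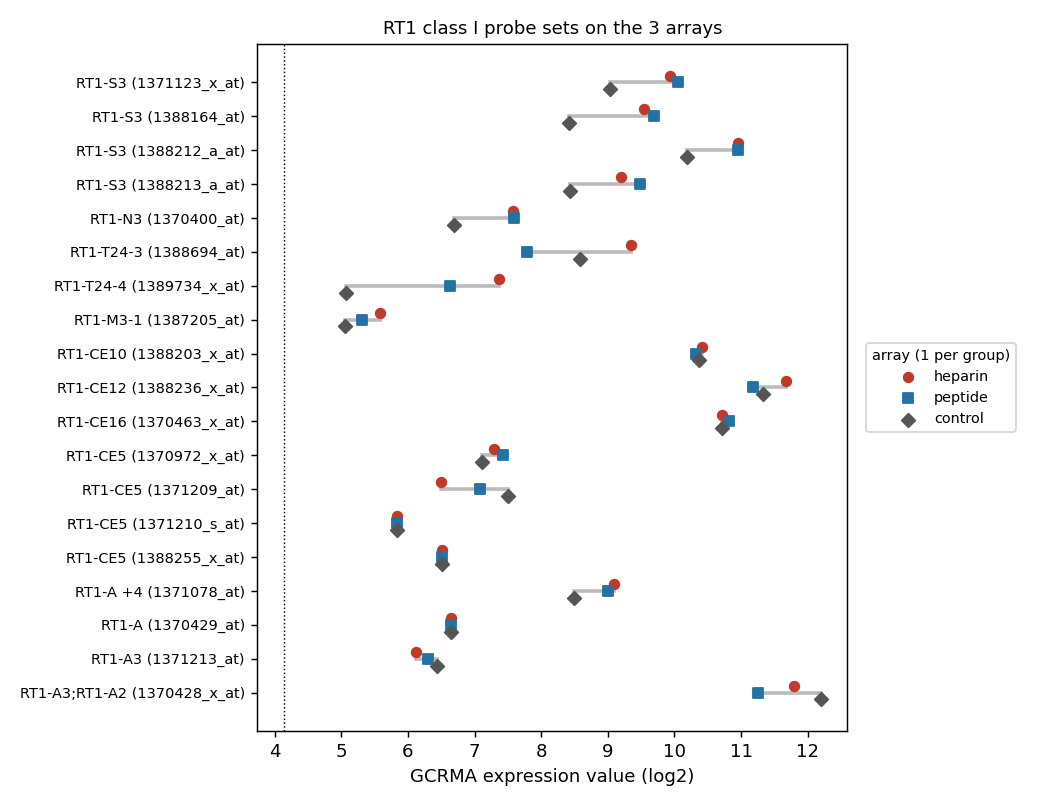
GCRMA expression values (x axis, log2) of the 19 class I probe sets at or above the array median, 1 row per probe set, with 1 point for each array (heparin, peptide, control) and a grey line over their range. The dotted line is the median of the control array. In the RT1-S3, RT1-N3 and RT1-T24-4 rows both treated points lie right of control, and in most RT1-CE rows the 3 points nearly coincide; the row "RT1-A +4" lists 4 further symbols.

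The RT1-CE genes, a large class I cluster, showed little difference for the most part. RT1-CE16 read 10.72 with heparin, 10.82 with peptide and 10.71 in control, and RT1-CE10 read 10.41, 10.32 and 10.36 in that order. RT1-CE12 read 11.67 with heparin, 11.18 with peptide and 11.32 in control. The median log2 difference of the 7 measured probe sets that list RT1-CE symbols alone was 0.01 with heparin and 0.00 with peptide. The probe sets of RT1-CE5 did not go together. Its probe set 1371209_at read 6.49 with heparin, 7.08 with peptide and 7.50 in control, which is 2.01-fold lower with heparin, while 1370972_x_at read 7.29, 7.43 and 7.12. Another pair of RT1-CE5 probe sets had exactly the same value on all 3 arrays, 5.83 for 1371210_s_at and 6.51 for 1388255_x_at.

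The classical RT1-A genes were not higher on any probe set that lists RT1-A symbols alone. The probe set for RT1-A3 and RT1-A2 together, 1370428_x_at, read 11.79 with heparin, 11.25 with peptide and 12.19 in control. It was 1.32-fold lower with heparin and 1.93-fold lower with peptide. RT1-A3 alone read 6.13 with heparin, 6.30 with peptide and 6.44 in control, and the RT1-A probe set 1370429_at read 6.64 on all 3 arrays. The exception was 1371078_at, which lists RT1-A with 4 RT1-CE genes and read 9.10 with heparin, 9.0 with peptide and 8.49 in control. It was 1.52-fold higher with heparin and 1.42-fold higher with peptide, and the locus behind the signal is unknown.

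A probe set counted as measured in a comparison when it was at or above the array median on both arrays (4.16 for heparin, 4.14 for peptide and 4.14 for control). Of the 26 class I probe sets, 19 were measured in every comparison. The other 7 were below the median on all 3 arrays, between 2.18 and 3.59, and stand for RT1-A3, RT1-A2 with RT1-A1, RT1-A with RT1-CE16 and RT1-A1, RT1-CE5, RT1-M6-1 with RT1-M4, RT1-N2, and RT1-T24-3 with RT1-T24-4. Their values were identical on the 3 arrays. Of the 19 measured, 3 also had 1 value on all arrays, as did 23.5% of all 15349 probe sets at or above the median on every array. Exact ties of this kind come with the deposited values and do not show equal abundance.

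With heparin, 2 of 19 class I probe sets were at least 2-fold higher than control (RT1-S3 and RT1-T24-4) and 1 was at least 2-fold lower (RT1-CE5), against 1.31% and 1.01% of all 15382 measured probe sets. At 1.5-fold the count was 8 higher and 1 lower, against 3.24% and 4.45% of all. The median log2 difference of class I was 0.35, and that of all probe sets was 0.00. With peptide, 4 class I probe sets were at least 2-fold higher (3 of RT1-S3, and RT1-T24-4) and 0 were lower, against 0.732% and 0.233% of all 15439. At 1.5-fold there were 6 higher and 2 lower, against 2.09% and 1.26%. The class I median was 0.11, with 10 probe sets higher, 6 lower and 3 identical. Of all 15439, 4681 were higher, 4452 lower and 6306 identical. The 4 probe sets counted at 2-fold stand for 2 genes. With 1 probe set per gene, that with the highest mean, the count is 1, because the RT1-S3 probe set so chosen, 1388212_a_at, was 1.71-fold higher. Both treatments were set against the same control array, so a low or high reading there enters both differences.

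Set directly against each other, the heparin and peptide arrays differed little in class I outside the RT1-T24 genes. RT1-T24-3 was 2.94-fold higher with heparin, the only one of 19 at 2-fold, where 0.462% of all probe sets were higher and 1.05% lower. RT1-T24-4 was 1.67-fold higher with heparin. RT1-CE5 on 1371209_at was 1.5-fold lower with heparin than with peptide, and the 4 RT1-S3 probe sets differed by -0.28 to -0.01. At 1.5-fold there were 2 class I probe sets higher and 1 lower, against 1.93% and 5.03% of all. Beta-actin, a control for RNA integrity, read lower at its 5′ end than at its 3′ end by 2.95 (log2) with heparin, against 2.34 with peptide and 2.33 in control. The same gap of GAPDH was 0.32 with heparin, 0.37 with peptide and 0.36 in control, and that of hexokinase 2.18, 2.28 and 2.18. The part of RNA integrity in the RT1 values was not tested.

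**Figure D2:**
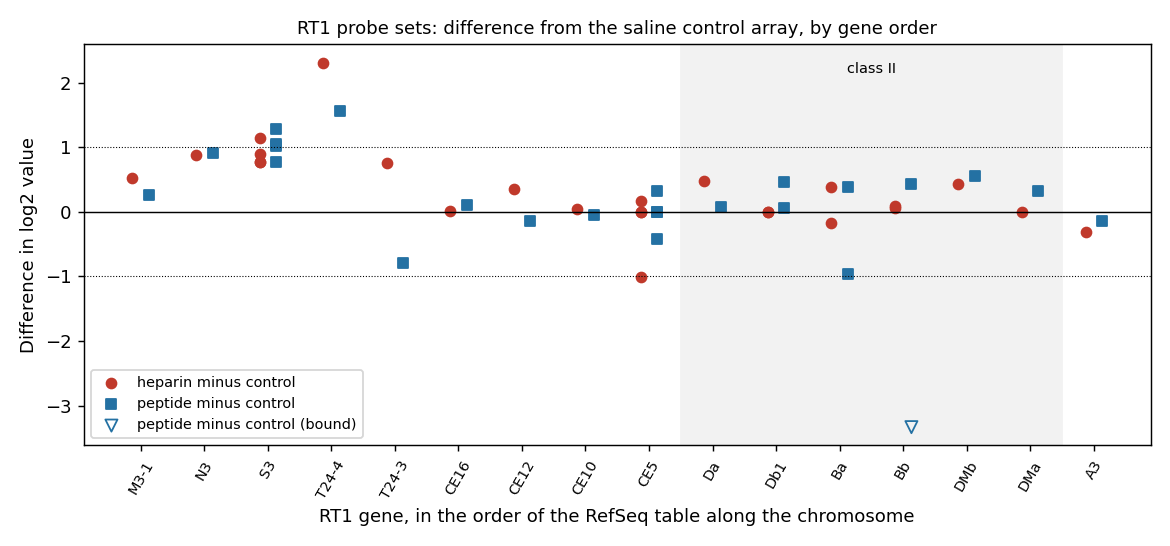
Difference in log2 value from the saline control array (y axis) for each measured single-symbol RT1 probe set whose gene is in the RefSeq table. Genes are on the x axis in their order along the chromosome, with circles for heparin and squares for peptide. The RT1-A probe set 1370429_at has no place in that table and is not shown. The grey band holds the class II genes, dotted lines mark 2-fold, and the open triangle is a bound for the RT1-Bb probe set that was below the array median with peptide. RT1-N3, RT1-S3 and RT1-T24-4 stand next to each other above 0, and most RT1-CE points lie near 0.

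None of the 9 class II probe sets measured with heparin was 1.5-fold higher or lower, and their median log2 difference was 0.06. With peptide, 7 of 8 measured were higher than control, though by at most 1.47-fold, and the median was 0.36. Of all 15439 probe sets measured with peptide, 4681 were higher and 4452 lower. Among measured probe sets, the class II count at 2-fold was 0 in either direction in all 3 comparisons. At 1.5-fold 1 was lower with peptide and 1 was higher with heparin than with peptide. These counts leave out 1371065_at of RT1-Bb in both comparisons with peptide, because it was below the median on the peptide array. It was at least 10.1-fold lower with peptide than in control, as given below. The shares of all probe sets at these sizes are those given for class I.

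Among the alpha chains, RT1-Da read 11.86 with heparin, 11.46 with peptide and 11.39 in control, which is 1.38-fold and 1.05-fold higher. The 2 measured probe sets of RT1-Ba disagreed. On 1370822_at it read 10.59 with heparin, 10.59 with peptide and 10.20 in control. On 1377334_at it read 8.98 with heparin, 8.19 with peptide and 9.15 in control, so the same gene was 1.31-fold higher with peptide on the one and 1.95-fold lower on the other. The remaining 2 RT1-Ba probe sets read 2.22 and 2.24 on all 3 arrays.

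Among the beta chains, RT1-Db1 on 1370382_at read 7.90 with heparin, 8.37 with peptide and 7.90 in control, and on 1370383_s_at 10.32, 10.37 and 10.32. For both, heparin and control had an identical value. RT1-Bb held the largest disagreement. Probe set 1371033_at read 11.90 with heparin, 12.27 with peptide and 11.84 in control, 1.35-fold higher with peptide. Probe set 1371065_at read 7.56 with heparin and 7.47 in control but 3.73 with peptide, which is below the array median. Counted from the median of the peptide array, it was at least 10.1-fold lower with peptide than in control. That is the largest bound among the 6 probe sets of the whole array that were below the median with peptide and at or above the 60th percentile in control. Against peptide, the heparin value was at least 10.7-fold higher, rank 10 of 19 such bounds. So the peptide array was the highest of the 3 on one RT1-Bb probe set and the lowest on the other, and no direction can be given for the gene.

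The peptide-loading pair was higher with peptide on both chains. RT1-DMa read 7.36 with heparin, 7.68 with peptide and 7.36 in control, a 1.25-fold difference for peptide and an identical value for heparin. RT1-DMb read 8.54 with heparin, 8.67 with peptide and 8.11 in control, 1.34-fold and 1.47-fold higher.

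**Figure D3:**
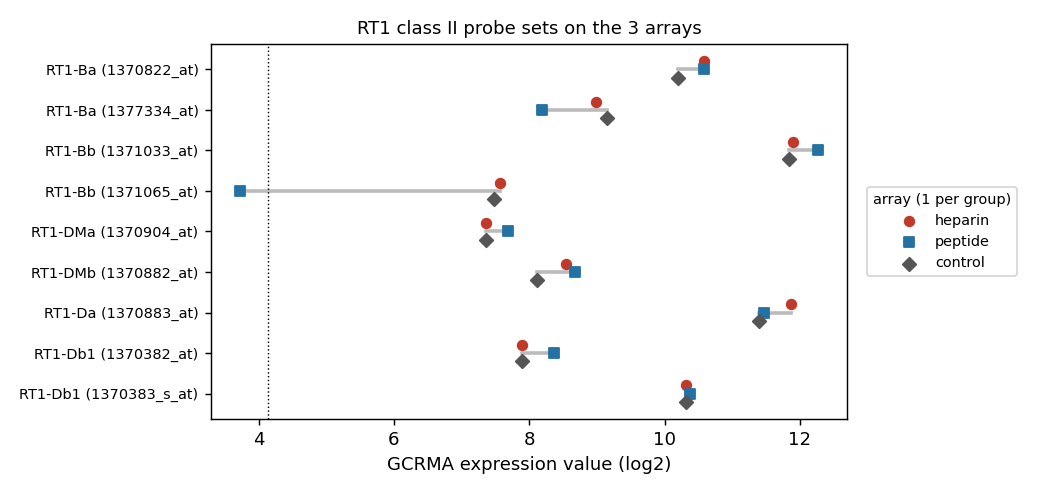
GCRMA expression values (x axis, log2) of the 9 class II probe sets at or above the array median on at least 1 array, 1 row per probe set, with 1 point for each array (heparin, peptide, control). The dotted line is the median of the control array. The peptide point of RT1-Bb on 1371065_at lies alone left of that line at 3.73, while the other RT1-Bb row has the peptide point furthest right.

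Class II promoters share a Y box, the site of the factor NF-Y, close to the start. The 4 genes of the classical pairs are shown for it, with the match to CTGATTGG (either strand) in capitals.
RT1-Da, chr20:4515327-4515386, plus strand: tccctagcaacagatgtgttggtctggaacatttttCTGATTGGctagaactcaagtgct
RT1-Db1, chr20:4560222-4560281, minus strand: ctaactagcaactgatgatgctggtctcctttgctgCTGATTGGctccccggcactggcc
RT1-Ba, chr20:4576975-4577034, plus strand: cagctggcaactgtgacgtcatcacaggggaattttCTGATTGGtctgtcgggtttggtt
RT1-Bb, chr20:4604159-4604218, minus strand: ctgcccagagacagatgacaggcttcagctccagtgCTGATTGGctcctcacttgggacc

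The match was found in 4 of 5 class II windows, in 8 of 16 class I windows and in 3.5% of all windows. Neither interferon form nor the NF-kB letters matched in the 5 class II windows; this concerns these letters in these windows alone.

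Most partner genes of class I were higher than control on the treated arrays. Of 20 measured genes of a class I pathway list, 16 were higher and 3 lower with heparin, and 15 were higher and 3 lower with peptide. Of all 15382 probe sets measured with heparin, 3832 were higher and 6793 lower. With peptide, 4681 of 15439 were higher and 4452 lower. With heparin 2 of the 20 were at least 2-fold higher and 0 were 2-fold lower, against 1.31% and 1.01% of all measured probe sets. With peptide 3 were 2-fold higher and 0 lower, against 0.732% and 0.233%. The chaperones Pdia3 and Hspa5 were among the lower ones with both, by at most 0.10 on the log2 scale. Tap1 and Tap2 form the transporter that brings peptides to class I. Tap1 read 9.23 with heparin, 8.92 with peptide and 7.65 in control (2.98-fold and 2.40-fold higher), and Tap2 read 8.78, 9.07 and 8.04. Another Tap1 probe set read 2.22 on all 3 arrays, below the medians, so it was not measured. Psmb8, an immunoproteasome subunit, was 3.0-fold higher with heparin and 1.55-fold higher with peptide, and its partner Psmb9 was 1.66-fold and 2.05-fold higher. Tapbp, the tapasin gene, was 1.32-fold higher with either treatment, and Psmb10 1.78-fold and 1.73-fold. Nlrc5 read 5.98 with heparin, 5.32 with peptide and 4.14 in control, where it lay just under the array median, so it was at least 3.57-fold higher with heparin. B2m, the common light chain, read 14.42 with heparin, 14.28 with peptide and 14.22 in control, differences of 0.20 and 0.06. These values are from its probe set with the highest mean, which has an _s_at ending. Its other probe set, with no such ending, read 12.54 with heparin, 12.15 with peptide and 11.85 in control. There the differences were larger, 0.68 with heparin and 0.30 with peptide. The list medians were 0.31 with heparin and 0.13 with peptide, where all probe sets had 0.00.

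In the class II pathway list, 0 of 17 measured genes were 2-fold higher or lower with either treatment, and both medians were 0.00. At the shares of all probe sets just given, a count of 0 among 17 is near the background and is no result about the list. Cd74, the invariant chain that travels with class II, read 13.33 with heparin, 13.35 with peptide and 13.30 in control. Ctss, the protease that trims it, read 10.11 with heparin, 9.86 with peptide and 9.70 in control. Ciita read 3.16 on all 3 arrays, below the median, so its level was not measured. Apart from these genes, the largest differences from control in the list were those of Cd86, Creb1 and Rfxap. Cd86, a costimulatory molecule, read 6.25 with heparin, 5.83 with peptide and 5.64 in control. Creb1 differed by -0.36 and Rfxap by -0.26, both with heparin. Rfxap and Creb1 encode factors that bind the class II promoter.

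**Figure D4:**
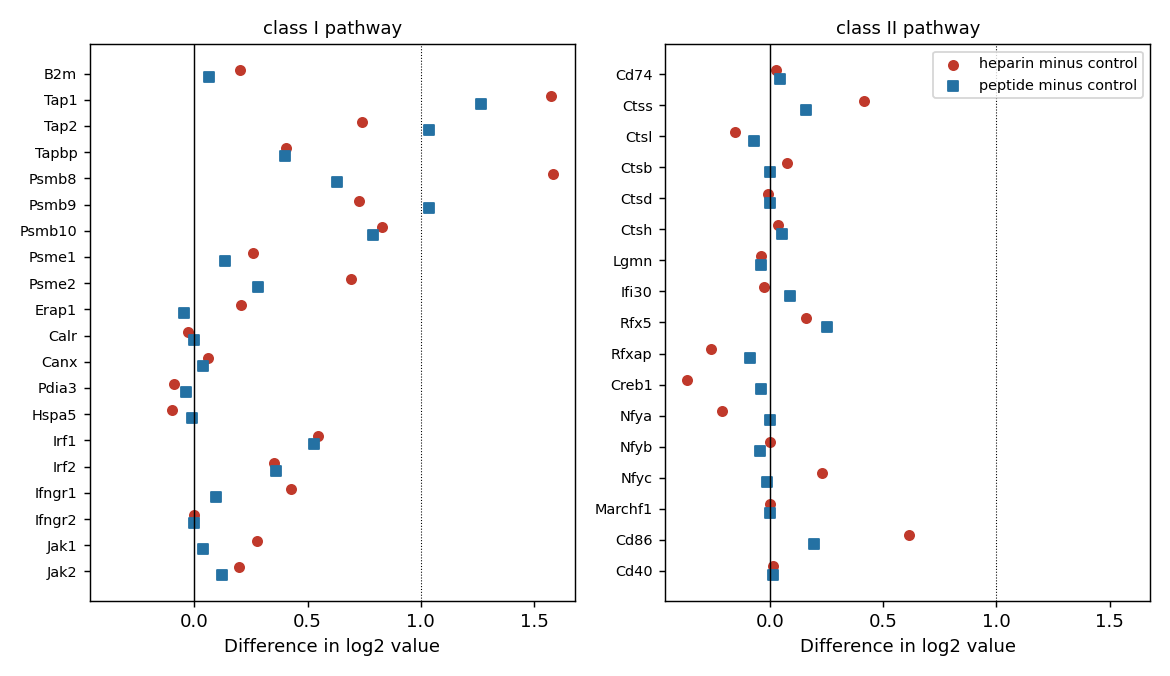
Difference in log2 value from the saline control array (x axis) for the genes of the class I and class II pathway lists that were at or above the median on all 3 arrays, circles for heparin and squares for peptide. The dotted line marks 2-fold. Tap1, Psmb8, Tap2 and Psmb9 reach or pass it in the class I panel in at least 1 treatment, and no class II pathway gene does.

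Receptors of class I molecules and related molecules were mostly below the array medians. Klrd1 and Klrc1, which make the receptor CD94/NKG2A, read 2.18 on every array except Klrc1 with heparin (2.50). Klrk1, the activating receptor NKG2D, read 4.79 with heparin, 5.33 with peptide and 3.83 in control, where it was below the median. The list had 4 genes measured in both comparisons with control, and 0 of them were 2-fold higher or lower, too few to be read against the shares of all probe sets. Lilrb4, an inhibitory receptor of myeloid cells, was 1.66-fold higher with heparin and 1.14-fold lower with peptide. Procr, a class I-like receptor for protein C, was 1.35-fold higher with heparin and 1.78-fold lower with peptide.

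Leukocytes and endothelium carry RT1 molecules too, so their markers stand beside these values. In a whole kidney, fewer cells of a type and less RNA per cell cannot be told apart. Kidney markers were strong on all arrays, with Umod of the thick ascending limb at 15.02 with heparin, 14.88 with peptide and 14.85 in control. All 4 B cell markers found on the array were below the median on every array, as were 7 of 8 T cell markers and 5 of 6 natural killer cell markers. Of 4 plasma cell markers 3 were measured. Jchain read 6.72 with heparin, 5.14 with peptide and 5.30 in control, 2.68-fold higher with heparin and 1.12-fold lower with peptide. With heparin, Sdc1 had the same value as control and Xbp1 differed by -0.03. The summed unlogged level of 9 monocyte and macrophage markers was 17600 with heparin, 13100 with peptide and 12800 in control. Lyz2, at 13.95 with heparin, 13.50 with peptide and 13.46 in control on the log2 scale, makes up most of that sum. Of the 8 measured, 5 were higher and 1 lower with heparin (median 0.10), and 2 were higher and 2 lower with peptide (median 0.00). Over all measured probe sets, 3832 of 15382 were higher and 6793 lower with heparin. With peptide, 4681 of 15439 were higher and 4452 lower. The sum of 5 neutrophil markers was 11900 with heparin, 15400 with peptide and 12800 in control. S100a8 and S100a9 make up most of it. By marker, 2 were higher and 2 lower with peptide (median 0.00), and 0 higher and 3 lower with heparin. The sum of 4 dendritic cell markers was 390, 346 and 524 in the same order, but 3 of the 4 were below the median on every array. The 1 measured was Itgax, at 8.56 with heparin, 8.37 with peptide and 8.99 in control. Over 3 podocyte markers the sum was 1740, 1070 and 1200. All 3 were higher with heparin (median 0.52) and lower with peptide (median -0.08). Over 4 endothelial markers the sum was 3450 with heparin, 2290 with peptide and 2720 in control. Of the 4, 3 were higher with heparin (median 0.32) and 3 lower with peptide (median -0.12), and Pecam1 was identical on all arrays. With peptide, Kdr differed by -0.56, Tek by -0.24 and Emcn by -0.005. Over 4 general leukocyte markers the sum was 2020, 1860 and 1980. The part of these cells in the RT1 values was not tested with either treatment.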

How the data were processed

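Expression was measured in 3 pools of kidney RNA, 1 each for heparin, peptide and saline control, on an Affymetrix rat array, from 6 µg of RNA per the labels' protocols. The authors deposited log2 expression values per probe set, made with GCRMA per the submitters' processing notes. The sources used here give no version or settings of GCRMA and no normalization between arrays. Arrays have no read depth, and their number limits the precision.

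Values were used as deposited. Gene symbols came from the platform annotation. Differences of log2 values were taken over 31042 probe sets, without the 57 array controls. A probe set was measured when at or above the array median on both arrays, and counted at 2-fold or 1.5-fold. Where one array read under its median and the other reached its 60th percentile, the difference is a bound, taken from the dim array's median or the dim value, whichever is higher. The counting step was checked on simulated data with known changes, which gives no error for the counts reported. No test was made with 1 array per group.

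The RT1 genes, the lists, the named genes and the tests were chosen with earlier results of these data known. All RT1 probe sets are accounted for. From the lists, B2m, Tap1, Tap2, Tapbp, Nlrc5, Cd74, Ciita and Ctss are named, with up to 3 further genes per list by size of difference. Klrd1 and Klrc1 were named after their values were seen, and so were Pdia3 and Hspa5, as genes lower with both treatments. A list gene was read by its probe set with the highest mean. Motifs were searched in RefSeq promoter windows. Python 3.11.15, pandas 2.3.3, numpy 2.4.6 and matplotlib 3.10.9 were used. Alternatives covered normalization, filter, an added constant, shared probe sets, 1 probe set per gene, centring and the counted size.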

Additional observations from a re-analysis of the deposited data

How the results depend on the processing

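No paired analysis was possible because each group has 1 array. Of 126 alternative values, 106 stayed within 0.1 (log2) for a median or 1.5 times for a count, and 20 did not. None turned the sign of a median that differed from 0. The class I median of heparin minus peptide was 0.00, so it had no sign to turn, and its alternatives ran from -0.017 to 0.055. Only counts of higher probe sets were varied, so counts of lower ones are not covered. The heparin class I median of 0.35 was 0.17 when the 40th percentile replaced the median as filter and 0.0046 with no filter, which brings in probe sets near the floor; it was 0.57 both without x, s or a suffixes and, chosen after seeing the data, over probe sets whose values differ between arrays. The peptide class I median of 0.11 was 0.00 with the 40th percentile as filter and with no filter, and 0.29 over differing probe sets. The class II median with heparin, 0.06, was 0.22 with 1 probe set per gene, and with peptide, 0.36, it was 0.069 with no filter. Class I counts at 2-fold were small: the 2 with heparin became 1 with 1 probe set per gene, with the 60th percentile and without suffixes, and 8 at 1.5-fold. The 4 with peptide became 1 with 1 probe set per gene and without suffixes, and 2 with 32 added to the unlogged values. Heparin above peptide gave 1 in class I and 2 at 1.5-fold, and in class II 0, with 1 at 1.5-fold, with the 40th percentile and with no filter, the last 2 being RT1-Bb. Quantile normalization and centring moved no result past these limits.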
